A study of Mus musculus with 12 samples.

Results

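The circadian clock is a transcriptional feedback loop that runs in nearly every cell of the mouse. CLOCK, or its relative NPAS2, pairs with BMAL1 (gene *Arntl*) and switches on genes that carry an E-box in their promoters, among them the period genes (*Per1*, *Per2*, *Per3*) and the cryptochrome genes (*Cry1*, *Cry2*), whose proteins return to block the pair. The nuclear receptors REV-ERBα (*Nr1d1*) and REV-ERBβ (*Nr1d2*) repress *Arntl*, *Clock* and *Npas2*, and DBP is an output factor that passes the rhythm on to other genes through D-box elements. Skeletal muscle and connective tissue both hold such clocks, and the level of most of these genes depends on the time of day.

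The 10 clock genes described here are *Clock*, *Npas2*, *Per1*, *Per2*, *Per3*, *Cry1*, *Cry2*, *Nr1d1*, *Nr1d2* and *Dbp*. They were taken by symbol from a table of 18996 genes, and all 10 passed the filter on low counts that left 14765 genes. Polyadenylated RNA was sequenced from tissue beside the spine of 12 mice, 4 in each of 3 groups. They were BALB/c mice of both sexes, aged 5 to 7 weeks when obtained and kept in a light and dark cycle. No operation mice had no surgery and gave soft tissue, SHAM mice had soft tissue surgery with the vertebral lamina left in place, and Laminectomy mice had the lamina excised as well. Tissue of both operated groups was labelled as soft and scar tissue and was taken on day 7 after surgery. The hour of collection is not given in the sources used here, so time of day and group cannot be told apart. The 4 mice of a group are labelled as biological replicates. Coordinates are those of GRCm38, and each identifier is that of the deposited table.

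Each library held from 16802989 to 18077868 counts on genes, and each clock gene had between 16 and 4361 counts in a mouse. Levels are given as CPM, which are counts scaled to a common library size by the TMM method. A gene was called changed where its log2 fold change was above 0.5 in size and its Benjamini-Hochberg adjusted p below 0.05. Every adjusted p of a gene comes from the quasi-likelihood test of edgeR over all 14765 genes. The operated tissue differed from unoperated tissue in very many genes. Of all tested genes, 50.8% were called between SHAM and unoperated mice and 48.6% between Laminectomy and unoperated mice, with 50.6% and 49.8% of these calls higher. Scaled by library totals instead of TMM, 66% and 69.9% of the calls were higher, and the median of all genes moved up by 0.26 and 0.32 on the log2 scale.

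Of the 10 clock genes, 8 fell and 1, *Npas2*, rose in both operated groups, while *Clock* itself was not called. Of the 8, *Per1* was close to the threshold and lost its call in 10 of 19 other settings in SHAM and 6 of 19 in Laminectomy mice. The genes that fell are known targets of the clock, and their levels after surgery were between 20.9% and 58.7% of the No operation level. *Npas2* was 4.38-fold higher in SHAM mice and 4.26-fold higher in Laminectomy mice. The 9 calls of 10 stand beside 50.8% and 48.6% of all genes, the 8 lower calls beside 25.1% and 24.4%, and the 1 higher call beside 25.7% and 24.2%. Groups did not overlap for 9 clock genes in SHAM mice and for 8 in Laminectomy mice, against 54.5% and 56.0% of all tested genes. Both comparisons share the same No operation mice, so they are not independent of each other. The median log2 fold change of the 10 genes was -1.36 after SHAM surgery and -1.54 after laminectomy, where the median over all genes was -0.00195 and 0.00927. Between Laminectomy and SHAM mice no clock gene was called. In bulk tissue, fewer cells of a type and less RNA per cell cannot be told apart.

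**Figure D1:**
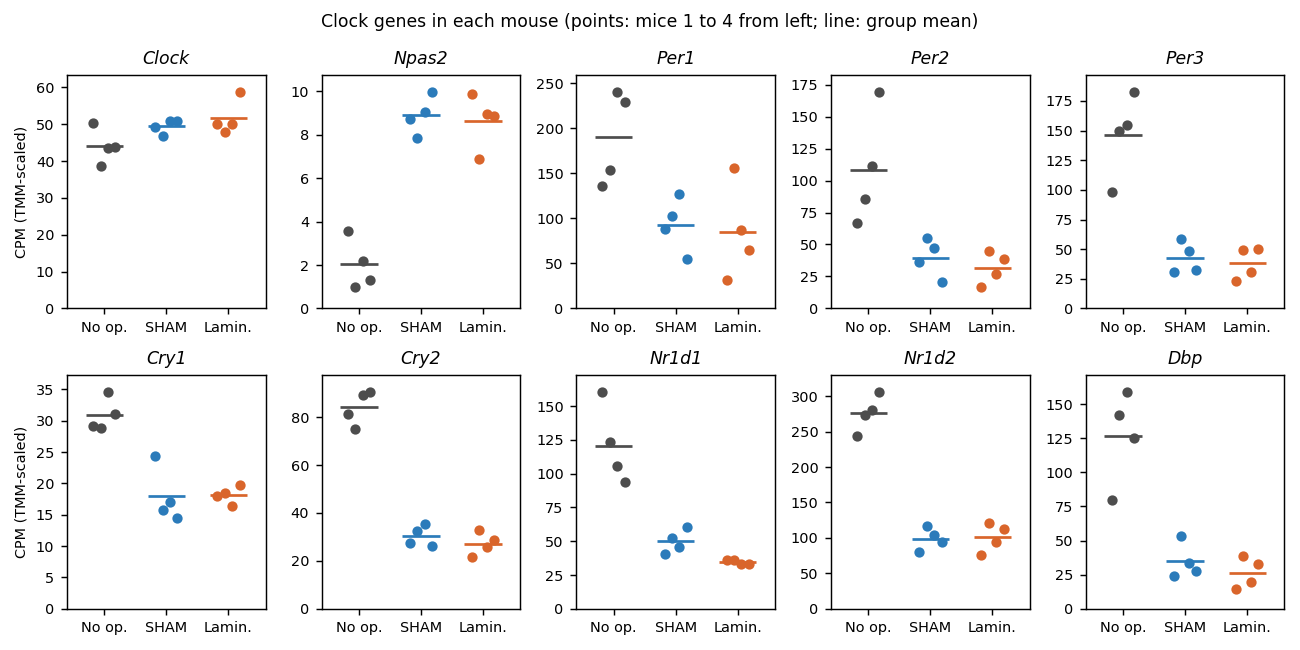
Level of each of the 10 clock genes in every mouse, in CPM on a linear axis from 0, with 1 point per mouse and a line at the group mean. *Npas2* is low in all 4 No operation mice and higher in all 8 operated mice, *Clock* overlaps between groups, and the other genes are lower after surgery, with overlap only for *Per1* in Laminectomy mice.

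Promoter sequence was searched for the known clock elements. Sequences from RefSeq (GRCm38.p6), 250 bases before to 50 bases after a transcription start, were on hand for 9 of the 10 genes, all but *Per2*, as 12 sequences. Both strands were read for the E-box CACGTG, the related E'-box CACGTT, the D-box TTATGTAA or TTACGTAA, and the ROR and REV-ERB element TAGGTCA or TGGGTCA. Of the 12 sequences, 5 held at least 1 of these, each from another gene. *Npas2*, *Nr1d2* and *Dbp*, which were called, held none in this window, nor did *Clock* or the second *Per1* sequence. The 4 promoters printed here belong to genes that fell and show an E-box, both kinds of E-box, a pair of D-boxes and an E'-box in turn, with the elements in capitals and positions counted in bases from the start.
*Per1*, chr11:69098699-69098998, plus strand, E-box at -166: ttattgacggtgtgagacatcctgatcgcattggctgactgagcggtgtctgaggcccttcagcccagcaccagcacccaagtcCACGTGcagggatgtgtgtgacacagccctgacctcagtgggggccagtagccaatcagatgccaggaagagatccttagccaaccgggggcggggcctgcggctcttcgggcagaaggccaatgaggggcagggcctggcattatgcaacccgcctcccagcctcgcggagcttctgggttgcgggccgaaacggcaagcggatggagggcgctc
*Cry1*, chr10:85185005-85185304, minus strand, E'-box at -79 and E-box at -60: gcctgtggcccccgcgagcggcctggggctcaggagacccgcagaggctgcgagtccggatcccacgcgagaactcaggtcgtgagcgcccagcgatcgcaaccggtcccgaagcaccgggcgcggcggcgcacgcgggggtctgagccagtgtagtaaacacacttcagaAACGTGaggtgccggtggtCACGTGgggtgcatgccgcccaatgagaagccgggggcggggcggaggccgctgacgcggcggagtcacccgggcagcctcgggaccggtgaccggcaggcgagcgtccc
*Per3*, chr4:151044616-151044915, minus strand, D-boxes at -205 and -158: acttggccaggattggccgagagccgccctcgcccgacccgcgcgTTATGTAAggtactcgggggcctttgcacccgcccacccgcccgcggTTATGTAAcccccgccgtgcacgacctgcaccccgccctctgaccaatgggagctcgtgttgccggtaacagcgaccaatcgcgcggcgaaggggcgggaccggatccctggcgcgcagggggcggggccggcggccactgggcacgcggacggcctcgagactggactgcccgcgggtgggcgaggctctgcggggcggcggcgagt
*Nr1d1*, chr11:98775328-98775627, minus strand, E'-box at -28: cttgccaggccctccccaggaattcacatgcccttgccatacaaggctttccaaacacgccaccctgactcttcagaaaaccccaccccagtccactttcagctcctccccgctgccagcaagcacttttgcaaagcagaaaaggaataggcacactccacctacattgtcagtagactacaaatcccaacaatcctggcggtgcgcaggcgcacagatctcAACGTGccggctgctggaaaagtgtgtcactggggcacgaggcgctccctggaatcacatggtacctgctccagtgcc
*Cry2* also held an E'-box, at -166. The E-box was thus in 2 of the 12 sequences, the E'-box in 3, a D-box in 1 and the ROR and REV-ERB element in none. Among all 32851 promoter sequences of the same length, 7.15% held the E-box, 4.68% the E'-box, 1.06% a D-box and 6.45% the ROR and REV-ERB element. These letters are a description of the windows, and the element spellings were settled after a first look at the matches.

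Of the activators that drive the loop, *Clock* was called in neither operated group. Unoperated mice 1 to 4 had 50.4, 38.7, 43.5 and 43.9 CPM of *Clock* (identifier 12753, chromosome 5, 76209868 to 76304792). The 4 SHAM mice had 49.2, 46.9, 50.8 and 50.8 CPM, and the 4 Laminectomy mice had 50.2, 48.0, 49.9 and 58.8 CPM. The highest unoperated mouse lay among the operated mice, so the groups overlapped. The log2 fold change from unoperated to SHAM mice was 0.16 (SE 0.09, adjusted p = 0.152), and to Laminectomy mice 0.23 (SE 0.09, adjusted p = 0.0537), with a 95% interval of -0.04 to 0.37 in SHAM and 0.02 to 0.43 in Laminectomy mice. In the Laminectomy comparison alone, scaling by library totals brought *Clock* past the threshold, at a log2 fold change of 0.56 (adjusted p = 0.000366).

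*Npas2*, which can take the place of CLOCK beside BMAL1, was the only clock gene that rose. *Npas2* (identifier 18143, chromosome 1, 39193731 to 39363236) measured 3.58, 1.01, 2.2 and 1.33 CPM in mice 1 to 4 without surgery. After SHAM surgery it measured 8.71, 7.86, 9.06 and 9.98 CPM, and after laminectomy 9.9, 6.89, 8.96 and 8.86 CPM. The lowest operated mouse, at 6.89 CPM, stood above the highest unoperated mouse, at 3.58 CPM. Its log2 fold change was 2.13 (SE 0.32, adjusted p = 0.00018) in SHAM tissue and 2.09 (SE 0.32, adjusted p = 0.000239) in Laminectomy tissue. Per base of transcript, *Npas2* stood at 20.4%, 7.45%, 14.5% and 8.7% of *Clock* in No operation mice, a ratio that does not depend on library scaling. The same ratio was 50.8%, 48.1%, 51.0% and 56.3% in SHAM mice and 56.5%, 41.2%, 51.4% and 43.2% in Laminectomy mice. The mean was 12.7% ± 5.92 (SD, n = 4) without surgery, 51.6% ± 3.46 (SD, n = 4) in SHAM and 48.1% ± 7.17 (SD, n = 4) in Laminectomy mice. The ratio was 4.04-fold and 3.77-fold that of No operation mice. Laminectomy mice had 0.932 times the ratio of SHAM mice. The ratio was added after the values of both genes had been seen, so it is given with no test.

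The period genes encode the inhibitors whose build-up times the loop, and all 3 fell in both operated groups. Unoperated mice 1 to 4 had 98.2, 150.0, 155 and 183 CPM of *Per3* (identifier 18628, chromosome 4, 151003652 to 151044665). The 4 SHAM mice had 30.9, 58.4, 48.6 and 32.4 CPM, and the 4 Laminectomy mice had 23.3, 49.6, 30.8 and 50.4 CPM. All 8 operated mice lay below the lowest unoperated mouse, at 98.2 CPM. The log2 fold change of *Per3* was -1.78 (SE 0.30, adjusted p = 0.000339) after SHAM surgery and -1.93 (SE 0.30, adjusted p = 0.00024) after laminectomy. *Per2* (identifier 18627, chromosome 1, 91415982 to 91459324) measured 66.6, 85.4, 111 and 169 CPM in mice 1 to 4 without surgery. After SHAM surgery it measured 36.1, 55.1, 47.2 and 20.6 CPM, and after laminectomy 17.2, 45.1, 26.8 and 38.9 CPM. Again no operated mouse reached the unoperated range, and No operation mouse 4 stood well above the rest of its group. *Per2* fell by 1.44 on the log2 scale in SHAM mice (SE 0.38, adjusted p = 0.00628) and by 1.76 in Laminectomy mice (SE 0.38, adjusted p = 0.00221).

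*Per1*, the period gene that also answers to acute signals such as glucocorticoids, had the widest relative spread of the 10 genes in Laminectomy mice. Unoperated mice 1 to 4 had 137, 154, 241 and 229 CPM of *Per1* (identifier 18626, chromosome 11, 69095217 to 69109960). The 4 SHAM mice had 87.9, 103, 127 and 55.0 CPM, and the 4 Laminectomy mice had 32.0, 156, 86.8 and 64.9 CPM. SHAM mice lay below all No operation mice, but Laminectomy mouse 2 lay above the lower pair of unoperated mice. The log2 fold change of *Per1* was -1.03 (SE 0.41, adjusted p = 0.0476) after SHAM surgery and -1.16 (SE 0.41, adjusted p = 0.0299) after laminectomy, close to the threshold in both. Under leave-one-out the adjusted p in SHAM mice rose past 0.05 without No operation mouse 2 (0.0515), 3 (0.112) or 4 (0.105), without SHAM mouse 1 (0.0948), 2 (0.0739) or 4 (0.119), and without Laminectomy mouse 3 (0.061) or 4 (0.056). In Laminectomy mice the call was lost without No operation mouse 3 (0.0746) or 4 (0.0733), or without Laminectomy mouse 1 (0.0534), 3 (0.0579) or 4 (0.0754). It was also lost with library totals, at an adjusted p of 0.124 and 0.0969, and in SHAM mice with no count filter, at 0.0521.

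The cryptochromes, the other arm of the inhibitory complex, fell by different amounts. *Cry2* (identifier 12953, chromosome 2, 92403646 to 92434043) measured 81.1, 75.3, 89.3 and 90.4 CPM in mice 1 to 4 without surgery. After SHAM surgery it measured 27.6, 32.3, 35.4 and 26.1 CPM, and after laminectomy 21.7, 32.9, 25.8 and 28.5 CPM. Unoperated mice lay at or above 75.3 CPM of *Cry2* and operated mice at or below 35.4 CPM. Its log2 fold change was -1.47 (SE 0.14, adjusted p = 9.51e-06) in SHAM tissue and -1.63 (SE 0.14, adjusted p = 7.8e-06) in Laminectomy tissue. Unoperated mice 1 to 4 had 29.2, 28.8, 34.6 and 31.1 CPM of *Cry1* (identifier 12952, chromosome 10, 85131700 to 85185064). The 4 SHAM mice had 24.4, 15.7, 17.1 and 14.5 CPM, and the 4 Laminectomy mice had 18.1, 18.5, 16.4 and 19.7 CPM. SHAM mouse 1 was the nearest to the unoperated mice, and still below them. *Cry1* fell by 0.79 on the log2 scale in SHAM mice (SE 0.15, adjusted p = 0.000907) and by 0.77 in Laminectomy mice (SE 0.15, adjusted p = 0.00116). With library totals its Laminectomy value was -0.45 and no longer called. An RNA of the opposite strand, which the table does not list, covers 4.67% of the exon length of *Cry2*.

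REV-ERBα and REV-ERBβ form the second loop, in which they oppose the ROR receptors. *Nr1d1* (identifier 217166, chromosome 11, 98767932 to 98775333) measured 160.4, 124, 106 and 93.6 CPM in mice 1 to 4 without surgery. After SHAM surgery it measured 40.9, 52.4, 45.4 and 60.7 CPM, and after laminectomy 36.2, 36.2, 33.5 and 33.2 CPM. The groups did not overlap, and No operation mouse 1 was the highest. *Nr1d1* had a log2 fold change of -1.28 (SE 0.17, adjusted p = 6.15e-05) in SHAM mice and -1.80 (SE 0.17, adjusted p = 1.21e-05) in Laminectomy mice. Unoperated mice 1 to 4 had 244, 273, 281 and 306 CPM of *Nr1d2* (identifier 353187, chromosome 14, 18204054 to 18239127). The 4 SHAM mice had 79.6, 117, 104 and 94.3 CPM, and the 4 Laminectomy mice had 75.8, 121, 93.6 and 113 CPM. Its lowest unoperated mouse, at 244 CPM, stood far above its highest operated mouse, at 121 CPM. The log2 fold change of *Nr1d2* was -1.48 (SE 0.16, adjusted p = 2.2e-05) in SHAM tissue and -1.45 (SE 0.16, adjusted p = 3.16e-05) in Laminectomy tissue.

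*Dbp* is a direct output of the loop and had the lowest fold change of the 10 genes in both operated groups. *Dbp* (identifier 13170, chromosome 7, 45705088 to 45710203) measured 79.5, 142, 159 and 126 CPM in mice 1 to 4 without surgery. After SHAM surgery it measured 24.3, 53.7, 33.6 and 27.7 CPM, and after laminectomy 14.7, 38.8, 19.8 and 32.6 CPM. The highest operated mouse, at 53.7 CPM, was below the lowest unoperated mouse, at 79.5 CPM. Its log2 fold change was -1.86 (SE 0.34, adjusted p = 0.000683) in SHAM mice, 3.63-fold lower, and -2.26 (SE 0.35, adjusted p = 0.000239) in Laminectomy mice, 4.78-fold lower. Exons of *Dbp* and *Nr1d1* overlap a gene of the opposite strand, *Sphk2* over 18% of the exon length of *Dbp* and *Thra* over 8.55% of that of *Nr1d1*. Counting was at default settings, under which strand is not used and a read on both genes goes to neither, yet the values of *Dbp* and *Nr1d1* are fractional in all 12 mice. How reads of these stretches were shared out is thus not known. *Sphk2* was higher in SHAM mice at a log2 fold change of 0.65 and not called in Laminectomy mice at 0.31. *Thra* was at -0.33 in SHAM mice (adjusted p = 0.00205), under the fold threshold only, and at -0.55 in Laminectomy mice, called lower.

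**Figure D2:**
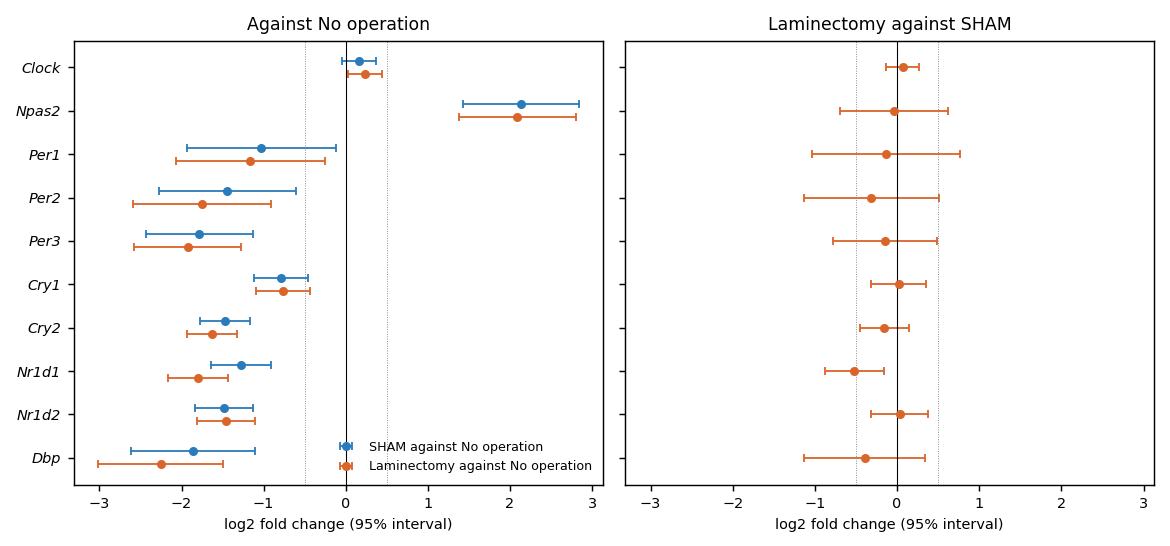
Log2 fold change of each clock gene with its 95% interval, against No operation mice on the left (SHAM in blue, Laminectomy in orange) and for Laminectomy against SHAM mice on the right, with dotted lines at 0.5 on either side of 0. *Npas2* lies near 2, *Clock* near 0 and the other 8 genes below 0 against No operation mice, while on the right only the interval of *Nr1d1* leaves out 0.

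By the exact permutation test, two-sided on log2 CPM, *Clock* was at p = 0.0857 in SHAM and 0.114 in Laminectomy mice, and *Per1* at p = 0.0857 in Laminectomy mice. The other clock genes were at 0.0286, the smallest p of this exact test, which 4 against 4 mice reach where the groups do not overlap, so it adds nothing to the count of genes without overlap. Leaving out any 1 mouse left 8 or 9 of the 10 genes called in each comparison with No operation mice, and between 6966 and 7642 of all genes in SHAM and 6534 and 7416 in Laminectomy mice.

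The comparison of Laminectomy with SHAM mice asks what removal of bone adds to soft tissue surgery. No clock gene was called, where 0% of all tested genes were called by edgeR, 2359 genes had an unadjusted p below 0.05 and DESeq2 called 687. The median log2 fold change of the 10 genes was -0.14, beside 0.00372 over all genes. *Nr1d1* alone had groups that did not overlap, where 10.1% of all tested genes did not. Its Laminectomy mice lay between 33.2 and 36.2 CPM and its SHAM mice between 40.9 and 60.8 CPM. The log2 fold change of *Nr1d1* was -0.52 (SE 0.16, adjusted p = 0.171), with a 95% interval of -0.88 to -0.16. *Thra*, its neighbour of the opposite strand, was at a log2 fold change of -0.22 in the same comparison (adjusted p = 0.175), and its mice did not overlap either, with 79.0 to 86.3 CPM against 91.8 to 101 CPM. The intervals of the other 9 genes all held 0. They were narrow for *Clock* (-0.14 to 0.27), *Cry2* (-0.46 to 0.14), *Cry1* (-0.31 to 0.35) and *Nr1d2* (-0.32 to 0.38), and wide for *Per1* (-1.03 to 0.76) and *Per2* (-1.13 to 0.51).

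Levels of different genes can be set side by side only per length of transcript, here as CPM per kilobase of annotated exon. In No operation mice *Nr1d2* came first at 51.0 ± 4.70 (SD, n = 4), followed by *Dbp* at 42.2 ± 11.4, *Nr1d1* at 39.3 ± 9.46 and *Per1* at 33.8 ± 9.33. *Per2* at 18.5 ± 7.63, *Per3* at 15.2 ± 3.67, *Cry2* at 13.3 ± 1.14, *Cry1* at 9.26 ± 0.788, *Clock* at 3.22 ± 0.351 and *Npas2* at 0.424 ± 0.240 followed. Neighbours in this order overlapped from mouse to mouse down to *Cry2*, and did not overlap between *Cry2* and *Cry1*, *Cry1* and *Clock*, or *Clock* and *Npas2*. In both operated groups the order was *Nr1d2*, *Per1*, *Nr1d1*, *Dbp*, *Per2*, *Cry1*, *Cry2*, *Per3*, *Clock* and *Npas2*, and only *Clock* and *Npas2* did not overlap. The distance between first and last shrank, from 51.0 against 0.424 in No operation mice to 18.2 ± 2.92 against 1.86 ± 0.183 in SHAM and 18.6 ± 3.73 against 1.81 ± 0.264 in Laminectomy mice. By its mean, *Per3* passed from above both cryptochromes to below them, though its mice overlapped those of *Cry1* and of *Cry2* in every group.

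The rest of the pathway was read from a list of 15 other clock regulators. In SHAM mice 9 of the 15 fell and none rose, and in Laminectomy mice 8 fell and 1, *Timeless*, rose, beside 25.1% and 24.4% of all tested genes called lower and 25.7% and 24.2% called higher. The list's median log2 fold change was -0.65 in SHAM and -0.56 in Laminectomy mice. *Arntl*, the partner of CLOCK and NPAS2, was not called. Unoperated mice had 25.7, 7.81, 10.3 and 13.9 CPM of it, the 4 SHAM mice 19.8, 10.1, 13.3 and 12.8 CPM and the 4 Laminectomy mice 16.8, 10.4, 21.2 and 11.8 CPM. Its unoperated mice spanned all operated mice, and its log2 fold change was -0.04 (SE 0.36, adjusted p = 0.926) and 0.06 (SE 0.36, adjusted p = 0.897). *Rora*, a nuclear receptor gene whose product activates *Arntl*, was at 94.2 to 115 CPM without surgery, 20.7 to 32.0 CPM after SHAM surgery and 16.6 to 29.4 CPM after laminectomy, with log2 fold changes of -2.02 and -2.09.

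The repressor *Bhlhe40*, the gene of the list with the highest CPM in No operation mice, was at 211 to 276 CPM without surgery, 134 to 165 CPM in SHAM and 113 to 160.0 CPM in Laminectomy mice, and fell by 0.76 and 0.86 on the log2 scale. Its relative *Bhlhe41* fell in SHAM mice (-0.80) and was not called in Laminectomy mice (-0.48), and the difference between both operated groups, 0.31, was not called. Among genes for the turnover of clock proteins, the ubiquitin ligase gene *Btrc* (-0.70 and -0.52) and the kinase gene *Csnk1e* (-0.55 and -0.67) fell in both groups. Its sister *Csnk1d* was at 0.31 and 0.23 (adjusted p = 0.00472 and 0.0251) and not called, being under the fold threshold only. *Cipc*, an inhibitor of CLOCK, fell by 0.95 and 0.82. *Timeless* was at 16.0 to 25.4 CPM without surgery and rose by 0.66 in Laminectomy mice, to 28.3 to 38.1 CPM, with 0.38 in SHAM mice, not called.

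Of 9 genes known as clock outputs, 4 fell in both operated groups, namely *Tef*, *Hlf*, *Usp2* and *Tsc22d3*. In all, 5 of the 9 were called in SHAM and 4 in Laminectomy mice, a share near the 50.8% and 48.6% of all tested genes, with a list median of -0.63 and -0.55. The 4 lower calls in each group stand beside 25.1% and 24.4% of all tested genes called lower. *Tef* and *Hlf* are the close relatives of *Dbp*. Unoperated mice had 408, 432, 462 and 570.2 CPM of *Tef*, the 4 SHAM mice 99.6, 178, 161 and 128 CPM and the 4 Laminectomy mice 104, 167, 133 and 153 CPM, with log2 fold changes of -1.73 (SE 0.20, adjusted p = 3.54e-05) and -1.75 (SE 0.20, adjusted p = 4.28e-05). *Hlf* was at 25.4 to 44.2 CPM without surgery, 3.36 to 9.37 CPM in SHAM and 1.64 to 9.82 CPM in Laminectomy mice, and fell by 2.77 and 2.78 on the log2 scale. For *Dbp*, *Tef* and *Hlf* no operated mouse reached the unoperated range, where groups did not overlap for 54.5% of all tested genes in SHAM and 56.0% in Laminectomy mice. *Nfil3*, the D-box repressor, was not called, at 0.09 and -0.55. *Usp2*, a deubiquitinase gene, was at 156 to 326 CPM without surgery, 8.37 to 25.5 CPM in SHAM and 11.96 to 39.7 CPM in Laminectomy mice, with log2 fold changes of -3.62 and -3.11. *Tsc22d3*, which glucocorticoids also induce, was at 461 to 1110 CPM without surgery, 100.3 to 193 CPM in SHAM and 62.7 to 213 CPM in Laminectomy mice, with log2 fold changes of -2.21 and -2.17. *Tspan4* rose in SHAM mice (0.72) and stood at 0.48 in Laminectomy mice, under the fold threshold. *Wee1*, *Noct* and *Por* were not called in either group, with log2 fold changes of -0.63, 0.25 and 0.28 in SHAM and -0.45, -0.06 and -0.39 in Laminectomy mice.

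Genes that answer to signals able to reset a clock were read as well. Of 7 glucocorticoid-responsive genes, 3 fell and 2 rose in SHAM mice, and 4 fell and none rose in Laminectomy mice. In all, 5 and 4 of the 7 were called, beside 50.8% and 48.6% of all tested genes, and the list's median was -0.49 and -0.86. The one with the highest CPM, *Sgk1*, was at 307 to 419.7 CPM without surgery and fell by 1.04 and 0.86 on the log2 scale. Of 8 immediate-early genes, 3 rose in SHAM and 4 in Laminectomy mice, and 1 fell in each, so 4 and 5 of the 8 were called beside those shares of all genes, with a median of 1.33 and 1.46. *Fos* was at 23.2 to 119.8 CPM without surgery, 206 to 526 CPM in SHAM mice (2.22) and 101 to 481 CPM in Laminectomy mice (1.99). Their part in the clock gene levels was not tested.

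The tissues differed in makeup alongside these changes. The unoperated tissue, labelled as soft tissue, held skeletal muscle RNA in quantity. The summed level of 12 muscle markers was 108300 to 153600 CPM in No operation mice, 2602 to 10400 CPM in SHAM mice and 3531 to 14920 CPM in Laminectomy mice. All 12 fell in both operated groups, with a median log2 fold change of -4.12 and -3.61. Of 6 adipocyte markers, 4 fell in SHAM mice and 6 in Laminectomy mice. Macrophage markers rose, 8 of 8 in SHAM and 7 of 8 in Laminectomy mice, as did 5 of 8 fibroblast markers in each, with 1 lower. Of 6 endothelial markers, 3 fell in each, and of 7 neutrophil markers 1 rose in SHAM and none in Laminectomy mice. These counts stand beside 25.7% and 24.2% of all tested genes called higher, 25.1% and 24.4% called lower and 50.8% and 48.6% called at all. The endothelial share was near that of all genes called in either direction, though all 3 endothelial calls in each group were lower. As point values, the ranges of the muscle markers and the clock genes did not meet. Muscle marker log2 fold changes were no higher than -2.92 in SHAM and -2.43 in Laminectomy mice, and those of the clock genes no lower than -1.86 and -2.26. The 95% interval of the nearest marker was -4.22 to -1.62 in SHAM and -3.70 to -1.15 in Laminectomy mice. That of *Dbp* was -2.61 to -1.11 and -3.02 to -1.49, so the intervals overlapped in both groups. The part of these markers in the clock gene levels was not tested. Neuron and glia markers summed to at most 1.93 CPM in 10 mice but to 153.6 CPM in Laminectomy mouse 2 and 54.4 CPM in Laminectomy mouse 3. Without Laminectomy mouse 2, 9 of the 10 clock genes were called against No operation mice, and without mouse 3 the count was 8.

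**Figure D3:**
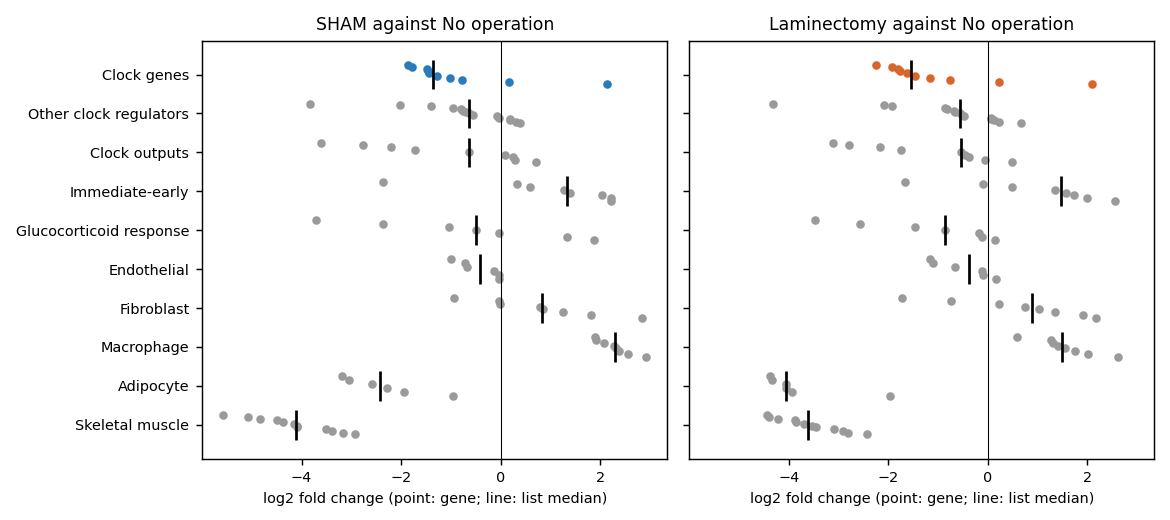
Log2 fold change against No operation mice of every tested gene of 10 lists, in SHAM mice on the left and Laminectomy mice on the right, with 1 point per gene, clock genes in colour and a black line at each list's median. Clock gene medians are -1.36 and -1.54, macrophage medians 2.30 and 1.48, and skeletal muscle medians -4.12 and -3.61.

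Mice of 1 group also differed from each other, and these deviations were compared between clock genes. For each mouse the deviation of log2 CPM from its group mean was taken, and the 45 pairs of clock genes were correlated over 12 mice, with p from exact permutation of mice within groups and Benjamini-Hochberg adjustment over the 45 pairs. Of these, 8 pairs had an adjusted p below 0.05, all with a positive r, while 20 had an unadjusted p below 0.05. Their adjusted exact permutation p ran from 0.00977 to 0.0439. The lowest r among them was 0.797, which 10 of the 45 pairs reached or passed, beside 1.09% of all pairs of tested genes. This cut was taken from the 8 pairs themselves, so those 8 reach it by construction. The 8 pairs tied *Per3*, *Nr1d2* and *Dbp* together, *Per1*, *Per2* and *Cry2* together, and *Per2* with *Per3* and *Nr1d2*. The strongest was *Per3* with *Nr1d2*, at r = 0.949 and rho = 0.965 (adjusted exact permutation p = 0.00977 for each). *Per3* and *Dbp* had r = 0.931 and rho = 0.930 (adjusted exact permutation p = 0.0146 and 0.0187). *Nr1d2* and *Dbp* had r = 0.914 and rho = 0.930, and *Per1* and *Cry2* r = 0.896 and rho = 0.874. Without the pair of mice farthest from the median, r stayed at 0.937 for *Per3* with *Nr1d2*, 0.865 for *Per3* with *Dbp*, 0.889 for *Nr1d2* with *Dbp* and 0.778 for *Per1* with *Cry2*.

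The number of such pairs rested on single mice. It was 1 without Laminectomy mouse 1, 3 without Laminectomy mouse 2 and 17 without No operation mouse 2, where fewer mice also give a coarser permutation p. Laminectomy mouse 1 was the lowest of its group for 6 of the 10 genes (*Per1*, *Per2*, *Per3*, *Cry2*, *Nr1d2* and *Dbp*), and Laminectomy mouse 2 the highest for 5 of these 6. For *Per3* with *Nr1d2*, r lay between 0.933 and 0.969 whichever mouse was left out, and for *Nr1d2* with *Dbp* between 0.879 and 0.937. Laminectomy mouse 1 also had the lowest muscle sum of its group, 3531 CPM, and mouse 2 the highest, 14920 CPM. In SHAM mice the lowest muscle sum, 2602 CPM, was in mouse 1, which was lowest for *Per3*, *Nr1d1*, *Nr1d2* and *Dbp*, and the highest, 10400 CPM, in mouse 4, which was lowest for *Per1*, *Per2*, *Cry1* and *Cry2*. Among No operation mice, mouse 4 had the highest muscle sum, 153600 CPM, and was highest for *Per2*, *Per3*, *Cry2* and *Nr1d2*, and mouse 2 had the lowest, 108300 CPM, and was lowest for *Clock*, *Npas2*, *Cry1* and *Cry2*. By number, mouse 1 was the lowest of its group for *Per3*, *Nr1d2* and *Dbp* in every group. The permutation p within groups does not allow for such a likeness of same-numbered mice. Whether muscle content or the replicate number set these deviations was not tested.

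*Nr1d1* stood outside this group of genes. It had r = -0.134 with its relative *Nr1d2* (rho = -0.0629, adjusted exact permutation p = 0.779) and r = -0.210 with *Dbp*. Without No operation mouse 1 these were 0.0896 and 0.155. With *Per2* it had r = -0.613 (rho = -0.490, adjusted exact permutation p = 0.111), with *Per1* -0.429, with *Per3* -0.372 and with *Cry2* -0.306. *Clock* and *Npas2* had r = 0.745 with each other (rho = 0.510, adjusted exact permutation p = 0.105), a tie that missed the threshold. *Cry1* and *Nr1d1* had r = -0.624 (rho = -0.713, adjusted exact permutation p = 0.109).

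**Figure D4:**
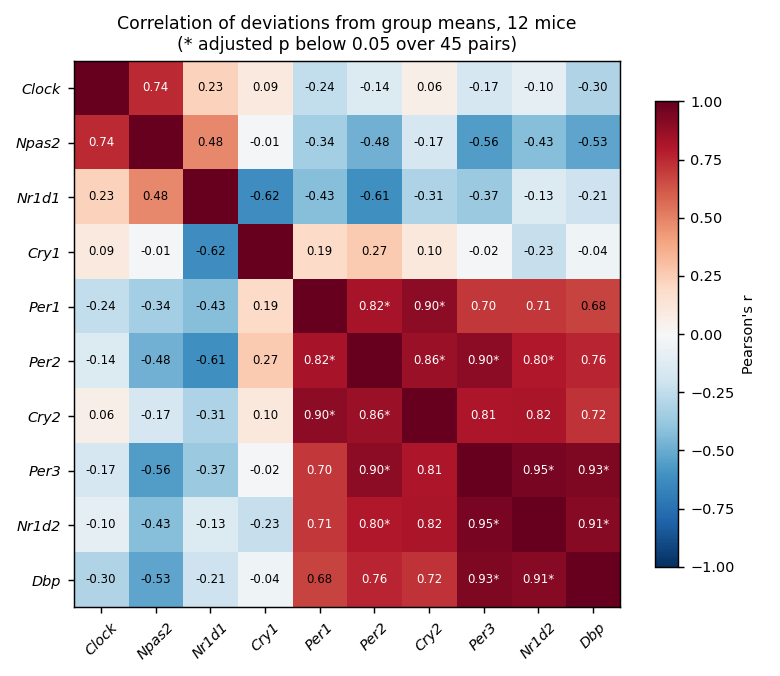
Pearson's r between the deviations of 2 clock genes from their group means over 12 mice, as a matrix coloured from -1 (blue) to 1 (red), with a star at an adjusted p below 0.05. The block of *Per1*, *Per2*, *Cry2*, *Per3*, *Nr1d2* and *Dbp* is red throughout and holds all 8 starred pairs, while *Clock*, *Npas2*, *Nr1d1* and *Cry1* lie outside it.

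The deviations of *Arntl* were set beside those of the clock genes after their values were seen, so they are described with no test. With *Dbp*, r over 12 mice was -0.813 and rho -0.839. Without No operation mice 1 and 2, the farthest in *Arntl*, r was -0.847, and it lay between -0.879 and -0.775 whichever mouse was left out. *Per3* had r = -0.702 and *Nr1d2* r = -0.640 with *Arntl*, and the other 7 genes had r between -0.408 (*Per2*) and 0.698 (*Npas2*). Without No operation mouse 1, r was -0.214 for *Per2* and 0.368 for *Npas2*. In No operation mouse 1 *Arntl* stood at 25.7 CPM, the highest of all, while *Dbp*, *Per1*, *Per2*, *Per3* and *Nr1d2* were the lowest of their group and *Npas2*, *Clock* and *Nr1d1* the highest.

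**Figure D5:**
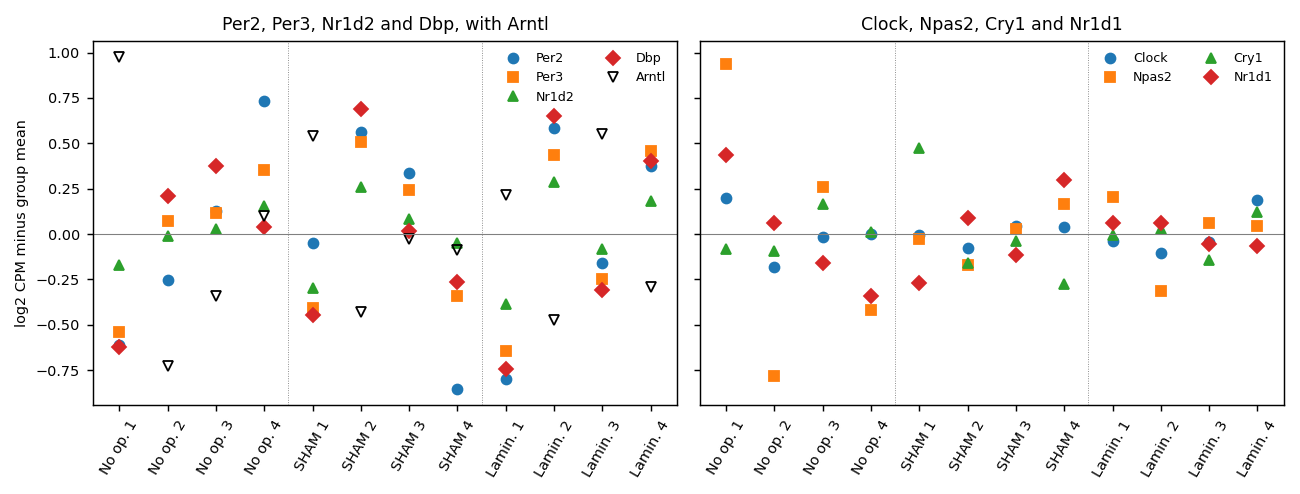
Deviation of log2 CPM from the group mean in each of the 12 mice, for *Per2*, *Per3*, *Nr1d2*, *Dbp* and *Arntl* (open triangles) on the left and *Clock*, *Npas2*, *Cry1* and *Nr1d1* on the right. *Per3*, *Nr1d2* and *Dbp* lie on the same side of 0 in most mice, with *Arntl* on the other side in all mice but No operation mice 2 and 4 and SHAM mouse 4.

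Set against every tested gene, the within-group pattern of *Dbp* was most like that of *Per3* among 14764 others, at r = 0.931, followed by *Grik5* (0.919) and *Etnk1* (0.916), with *Nr1d2* in place 4 (0.914) and *Arntl* in place 14651. *Clock* was most like *Zfp617* (0.953), *Inpp4b* (0.929) and *Casp12* (0.909), with *Npas2* in place 102. *Nr1d1* was most like *Ric8a* (0.962), *Itgax* (0.917) and *Anapc7* (0.903), and the best placed clock gene was *Npas2*, in place 1735. These likenesses are descriptions over 12 mice that share their libraries, without a test.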

How the data were processed

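The authors made stranded mRNA libraries, aligned the reads to GRCm38 with STAR (2.6.1b) and counted them with featureCounts (2.0.1), and their notes name DESeq2 (1.30.1). They deposited 1 table of estimated counts per gene, not normalized, with a column for each of the 12 mice. Of its values, 10.22% are not whole, among them all 12 of *Nr1d1* and of *Dbp*, and the step behind this is not given in the sources used here. The design had assumed whole numbers. Rounding to whole numbers moved no value by more than 0.5.

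Low counts were filtered with filterByExpr, which removed 4231 genes. Libraries were scaled by TMM (factors 0.849 to 1.134), and all mice were fitted in 1 model with glmQLFit and glmQLFTest (edgeR 4.0.16, R 4.3.3), tested on simulated data first. SE was derived from the log2 fold change and its F value (size over root of F). The common dispersion was 0.0799. DESeq2 1.42.0 was an alternative. Intervals are at 95%, and the log2 CPM of permutation tests and correlations has a prior count of 2. Depth covers counting error only. Exon lengths and overlaps come from GENCODE annotation of GRCm38 and promoters from RefSeq.

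The clock genes and all gene lists were chosen with earlier results of these data known. All 10 clock genes are named with every mouse. Other clock regulators and outputs are given by counts of calls, and their members with a mean of at least 10 CPM in the highest group with values. Some of these members are counted but not reported here by name. The other lists are given by counts and summed CPM, with the member of highest mean CPM of those that can reset a clock. For *Clock*, *Nr1d1* and *Dbp*, the 3 most alike genes are named. *Thra*, *Sphk2* and the pairs with *Arntl* were picked with their values in view. The study used 3 mice per group without naming them, and all 4 enter here.

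Alternatives were DESeq2, other scaling (RLE factors, library totals), no filter or at least 10 counts in every mouse, only the groups compared, a replicate block, other call thresholds and each mouse left out.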

Additional observations from a re-analysis of the deposited data

How the results depend on the processing

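Against No operation mice, every clock gene kept its direction under all 19 alternatives in both operated groups. *Per1* lost its call in 10 of 19 in SHAM and 6 of 19 in Laminectomy mice, and *Cry1* in 1 of 19 in Laminectomy mice (library totals, -0.45). The other 7 called genes kept theirs. These exclude the change of call threshold. With library totals, 2 clock genes were called higher in Laminectomy mice, the second being *Clock*. A log2 threshold of 1 left 4589 and 4323 of all genes called in SHAM and Laminectomy mice, and 8 of the 10 clock genes in each, with *Cry1* lost. DESeq2 called 687 genes between Laminectomy and SHAM mice, none a clock gene, where edgeR called 0.

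Deviations of same-numbered mice of different groups had r between -0.228 and 0.352 (median 0.14), those of other mice between -0.454 and 0.346 (median -0.0437), and 6 of 12 mice were closest to their own number. Since r over all tested genes was not above 0.1 in every same-numbered pair, the numbers were not taken to pair the mice. Some clock genes did line up by number. In every group, mouse 1 was the lowest for *Per3*, *Nr1d2* and *Dbp*, and mouse 2 the lowest for *Clock* and *Npas2*. A fit with the replicate number as a block called 9 of the 10 clock genes in each comparison with No operation mice and 0 between the operated groups, and changed no call of a clock gene.

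Between Laminectomy and SHAM mice, values near 0 changed sign. *Npas2* was at 0.0243 with library totals. Under leave-one-out the log2 fold change ran from -0.00215 to 0.10 for *Clock*, -0.11 to 0.0542 for *Npas2*, -0.60 to 0.14 for *Per1*, -0.30 to 0.0451 for *Per3*, -0.0724 to 0.21 for *Cry1* and -0.0690 to 0.14 for *Nr1d2*.

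The number of correlated pairs ran from 1 to 17 under leave-one-out, and was 7 by Spearman's rho and 12 with library totals. *Npas2* had 16 to 187 counts per mouse, so its relative counting error was larger than that of the other clock genes, which had at least 271.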
